A study of Mus musculus with 6 samples.

Results

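Heme is made and broken down by a short chain of enzymes, and 9 of them were followed here in the livers of mice that lack the peroxisomal import receptor Pex5 in hepatocytes. The 9 genes (Alas1, Alad, Uros, Urod, Cpox, Ppox, Fech, Hmox1 and Blvrb) were taken by name from the 18193 genes with a probe set of their own on the array, and each is represented by its brightest probe set, the one with the highest mean over all 6 arrays. The choice was by name and not by a cut on their values. Total RNA from the livers of 10-week-old male mice was hybridised to Affymetrix mouse arrays, 1 array per sample, with 3 wild-type (WT) livers and 3 livers labelled L Pex5 -/- (KO). The labels give both groups the same mixed background, Alb-Cre Tac:[Sw]fBR. Alb-Cre is a recombinase driven by the promoter of albumin, a hepatocyte gene, so the other liver cells of a KO mouse are not its target. Levels are log2 values and differences are KO minus WT on the log2 scale. A mean is given with the SD of its 3 livers and a difference with its SE from limma, and p-values were adjusted by Benjamini-Hochberg over all 18193 genes and a threshold of 0.05. Because whole liver was measured, fewer cells of a type and less RNA per cell cannot be told apart.

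Heme synthesis starts in the mitochondrion, where ALAS1 joins glycine and succinyl-CoA to aminolevulinic acid, the rate-limiting step in the liver. Aminolevulinic acid leaves for the cytosol, where ALAD, UROS and UROD take part in building coproporphyrinogen. The last steps return to the mitochondrion, where CPOX oxidises coproporphyrinogen, PPOX oxidises the product and ferrochelatase (FECH) inserts iron. HMOX1, the inducible heme oxygenase, opens the ring to biliverdin. Biliverdin reductases reduce this to bilirubin, mainly BLVRA in adult tissue, which is not among the 9. The member BLVRB is a flavin and biliverdin reductase. In the liver much of the heme goes into cytochromes P450, and heme in turn represses Alas1.

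The promoter sequences below stand for the genes whose values are compared later, namely the entry enzyme Alas1, the cytosolic pair Uros and Urod, the mitochondrial pair Cpox and Ppox, and the breakdown enzyme Blvrb. They are the 250 bases before an annotated start, 5′ to 3′ on the strand of the gene, from RefSeq on GRCm38.p6. Capitals mark matches, on either strand, to 3 motifs: GCGCANGCG (bound by the respiratory factor NRF1, and overlapping with its own reverse complement), TGACNNNGC (the core of the antioxidant response element) and CACGTG (the E box).
Alas1, second start (chr9:106247731-106247980, minus strand): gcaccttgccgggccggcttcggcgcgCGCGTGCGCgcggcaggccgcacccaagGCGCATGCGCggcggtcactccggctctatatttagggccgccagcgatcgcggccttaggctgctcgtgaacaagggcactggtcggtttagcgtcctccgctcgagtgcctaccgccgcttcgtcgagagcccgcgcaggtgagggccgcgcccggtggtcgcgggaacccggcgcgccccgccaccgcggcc
Uros, first start (chr7:133709296-133709545, minus strand): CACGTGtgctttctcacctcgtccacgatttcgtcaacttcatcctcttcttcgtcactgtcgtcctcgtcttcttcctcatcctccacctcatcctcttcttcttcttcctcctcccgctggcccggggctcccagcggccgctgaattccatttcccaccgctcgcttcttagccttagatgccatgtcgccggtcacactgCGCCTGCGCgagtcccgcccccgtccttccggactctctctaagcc
Urod (chr4:116994414-116994663, minus strand): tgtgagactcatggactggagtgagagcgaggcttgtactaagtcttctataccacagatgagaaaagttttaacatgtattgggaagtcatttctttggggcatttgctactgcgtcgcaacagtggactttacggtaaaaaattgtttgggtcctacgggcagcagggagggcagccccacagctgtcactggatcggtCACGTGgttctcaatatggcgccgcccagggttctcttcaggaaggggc
Cpox (chr16:58669958-58670207, plus strand): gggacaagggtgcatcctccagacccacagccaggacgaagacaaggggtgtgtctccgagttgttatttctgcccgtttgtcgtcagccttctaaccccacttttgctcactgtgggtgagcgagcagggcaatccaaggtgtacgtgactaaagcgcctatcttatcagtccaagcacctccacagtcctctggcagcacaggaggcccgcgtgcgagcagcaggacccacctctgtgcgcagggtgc
Ppox (chr1:171281187-171281436, minus strand): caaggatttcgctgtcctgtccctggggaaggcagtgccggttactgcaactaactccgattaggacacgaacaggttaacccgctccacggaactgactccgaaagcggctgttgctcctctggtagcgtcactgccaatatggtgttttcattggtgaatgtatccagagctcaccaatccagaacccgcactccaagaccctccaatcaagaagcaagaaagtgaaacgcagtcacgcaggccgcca
Blvrb, first start (chr7:27447728-27447977, plus strand): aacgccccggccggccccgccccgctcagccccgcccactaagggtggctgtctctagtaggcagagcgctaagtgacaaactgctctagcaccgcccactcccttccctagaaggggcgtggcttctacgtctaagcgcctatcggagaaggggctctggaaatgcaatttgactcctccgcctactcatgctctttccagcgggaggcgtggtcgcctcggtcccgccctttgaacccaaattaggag

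Of the 9 genes, 7 had 1 or more of the table's 300-base windows (250 bases before to 50 after a start), while Fech and Hmox1 did not. Alas1 held 3 NRF1 matches, those at -223, -195 and -194 from its second start, and the last pair overlap in a palindrome. The second start lies 224 bases downstream of the first, so the same letters sit just after the first start. Uros held 1 NRF1 match, at -46, and E boxes were found in Alad, Uros and Urod. The windows of Cpox, Ppox and Blvrb held no match to these 3 motifs, and no window of the 7 genes held the antioxidant response element core. Among all 32851 windows of this length 6.25% held the NRF1 motif, 7.15% the E box and 12.4% the antioxidant response element core. These matches describe letters and do not show that a factor binds.

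The arrays were close within groups (lowest r over all genes 0.989 in WT and 0.995 in KO) and less so between them (highest r 0.976). On each array the 38 bacterial control probe sets, which detect bacterial transcripts added from outside, averaged 9.81 to 9.91 in WT and 9.29 to 9.40 in KO (exact permutation p = 0.1, two-sided, the smallest that 3 against 3 arrays can give). Centring the arrays on these controls adds 0.51 to each difference and moves the median over all genes from -0.055 to 0.46, so directions below are relative to the bulk of the transcripts unless the control-centred value is given. Pex5 itself, the targeted gene, stood at 9.04 ± 0.14 in WT and 9.22 ± 0.11 in KO (adjusted p = 0.262), and whether its probe sets cover the deleted part was not analysed here. Hepatocyte markers were bright in each liver, their summed level lying between 16.98 and 17.02 in WT and between 16.98 and 17.03 in KO. Of the 10 measured, 1 was higher and 2 were lower, against 14.2% and 9.75% of all genes. Among 13 endothelial, stellate and biliary markers 1 was higher and 4 were lower, and the summed level of the 11 above background was 11.69 to 11.86 in WT and 11.35 to 11.55 in KO, without overlap. The part of these cells in the results below was not tested.

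Relative to the bulk of the transcripts, Blvrb rose 1.50-fold in KO livers, while Cpox and Fech, of the last mitochondrial steps, fell 1.25-fold and 1.26-fold. With arrays centred on their median, the calls of Cpox and Fech were lost (adjusted p = 0.0726 and 0.0667 by limma). Apart from Blvrb, Cpox and Fech, the other 6 enzymes did not pass the test. By their brightest probe sets, Uros, Urod and Hmox1 nevertheless had each KO liver above each WT liver, Ppox had each KO liver below, and Alas1 and Alad overlapped. The other Urod probe set had each KO liver below each WT liver. So 1 of 9 was higher, against 14.2% of all genes, and 2 of 9 were lower, against 9.75%. Called in either direction were 33.3% of the 9 and 24.0% of all genes, and 7 of 9 had groups that did not overlap, against 44.8% of all genes. These shares were not tested against each other. Of the 7, 4 had the KO livers above (22.1% of all genes) and 3 below (22.6%). Called with a change of at least 2-fold were 0 of the 9, against 4.82% of all genes. The median difference of the 9 was 0.0056, beside -0.055 for all genes. After control centring, 6 of the 9 were higher (Alad, Uros, Urod, Ppox, Hmox1 and Blvrb, against 71.3% of all genes) and 0 lower (against 2.25%).

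**Figure D1:**
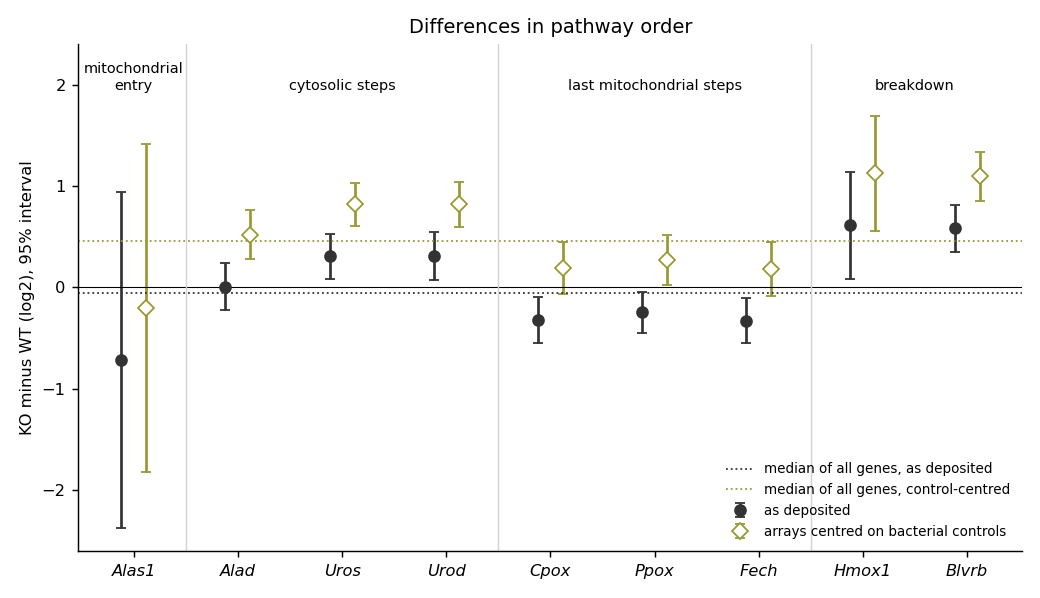
KO minus WT (log2) of the 9 enzymes in pathway order, with 95% intervals of the limma fit (3 against 3 livers), as deposited (filled circles) and with arrays centred on bacterial controls (open diamonds); dotted lines are the medians of all genes on each scale. The 3 last mitochondrial enzymes lie under the median of all genes, from -0.33 to -0.25 as deposited, and Hmox1 and Blvrb lie above it. Control centring moves each gene and the median alike by 0.51, so these positions are the same on both scales by construction.

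Alas1, the entry enzyme, varied more within the groups than between them. Its level was 9.45, 12.02 and 12.24 in WT livers 1, 2 and 3 and 10.11, 10.02 and 11.44 in KO livers 1, 2 and 3. WT liver 1 was the lowest of all 6, and the other WT livers were the highest. The WT livers spanned 6.93-fold and the KO livers 2.67-fold, and of 18193 genes 15 had a larger SD in WT and 51 in KO. The difference was -0.72 ± 0.72 (SE, 95% interval -2.37 to 0.94, adjusted p = 0.491). A second Alas1 probe set gave the same order within WT, at 6.24, 8.56 and 8.69, and 6.77, 6.63 and 7.78 in KO, with a difference of -0.77 ± 0.62. Without WT liver 1 the difference was -1.61 and passed as lower (adjusted p = 0.0304), and over all 16 alternatives it ran from -1.61 to -0.20.

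Some other genes shared this liver-by-liver pattern. Of 12041 genes above background, those most like Alas1 over the 6 arrays were Tef (Pearson r = 0.985), a transcription factor of the circadian output, Ppp1r12b (0.984), a subunit of myosin phosphatase, and Usp2 (0.980), a deubiquitinase. In all, 22 genes had an r over 0.95. These correlations are descriptions over only 6 arrays that share their normalization, without a test. The number of genes that would reach such an r by chance was not estimated. Tef stood at 8.25 in WT liver 1 and at 9.81 and 9.70 in the other WT livers. Usp2 stood at 6.23, 8.05 and 8.85. Ppp1r12b moved little, at 5.25, 5.49 and 5.55 in WT and 5.34, 5.28 and 5.44 in KO, close to the background of 4.90. Among the listed regulators of Alas1, Nr1d1 and Clpx were picked out after their values were seen. Nr1d1, the clock repressor REV-ERB alpha, which binds heme, was at 7.34 in WT liver 1 and at 8.28 and 8.68 in the others. Clpx, a mitochondrial unfoldase that acts on ALAS enzymes, went the other way, at 11.75 in WT liver 1 and 10.08 and 10.26 in the others. The KO livers lay closer together, from 7.79 to 7.88 for Nr1d1 and from 10.50 to 11.07 for Clpx. The labels used here do not record the hour of collection or feeding, and the part of these genes in the Alas1 values was not tested.

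**Figure D2:**
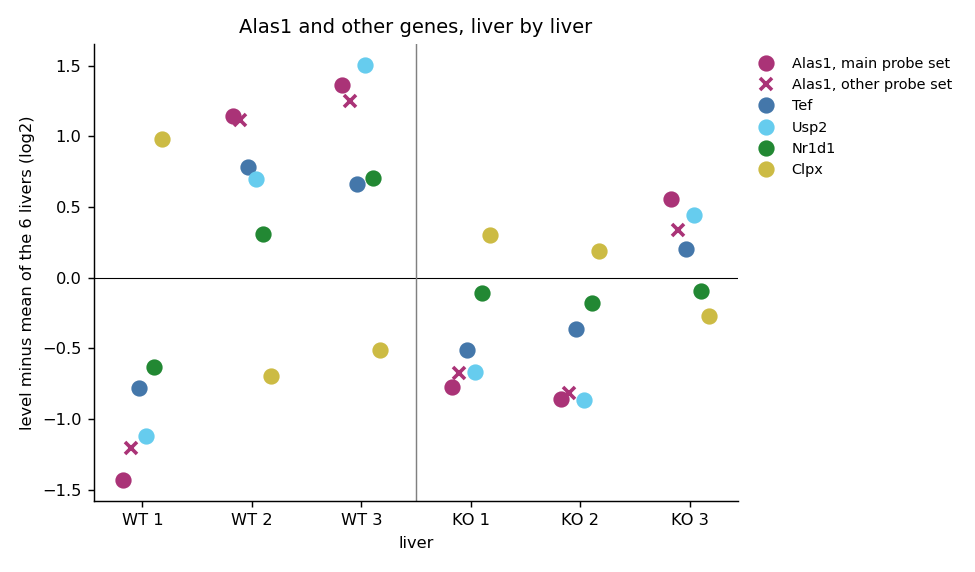
Level of each gene in each liver minus its mean over the 6 livers (log2), for both Alas1 probe sets, Tef, Usp2, Nr1d1 and Clpx. In WT liver 1, Alas1, Tef, Usp2 and Nr1d1 are at their lowest and Clpx, at 11.75, is at its highest.

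The cytosolic enzymes were steadier. Alad, which condenses aminolevulinic acid to porphobilinogen, stood at 12.06, 12.19 and 12.07 in WT and 12.19, 12.18 and 11.97 in KO. The groups overlapped and the difference was 0.0056 ± 0.10 (95% interval -0.23 to 0.24, adjusted p = 0.973). Uros, which closes the porphyrin ring, stood at 9.51, 9.44 and 9.48 in WT and 9.84, 9.86 and 9.65 in KO. Each KO liver was above each WT liver, by 0.31 ± 0.095 on average (95% interval 0.086 to 0.52), just outside the threshold (adjusted p = 0.0511, from 0.000191 to 0.756 over the alternatives). It passed as higher without KO liver 3 (0.37, adjusted p = 0.0472) and after control centring (0.82). Urod, which trims the side chains of uroporphyrinogen, stood at 10.49, 10.30 and 10.44 in WT and 10.83, 10.71 and 10.61 in KO, a difference of 0.31 ± 0.10 that did not pass (95% interval 0.070 to 0.54, adjusted p = 0.0640) and passed as 0.82 after control centring. The other probe sets of the last 2 genes pointed the other way. That of Urod was at 9.49 in WT and 9.25 in KO, with each KO liver below each WT liver (-0.24 ± 0.090, adjusted p = 0.0981 over all probe sets). The dim one of Uros differed by -0.20 ± 0.15. With the probe sets averaged, Uros differed by 0.051 and Urod by 0.032, so the direction of both rests on the choice of probe set.

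The last mitochondrial enzymes were all lower on average as deposited. Cpox, which oxidises coproporphyrinogen, stood at 9.26, 9.38 and 9.29 in WT and 9.12, 8.89 and 8.94 in KO. The KO livers lay wholly below the WT livers, and the gene fell by 0.33 ± 0.099 (1.25-fold, 95% interval -0.55 to -0.098, adjusted p = 0.0471, from 0.0175 to 0.869 over the alternatives). Ppox, the oxidase that follows it, stood at 8.20, 8.23 and 8.11 in WT and 7.90, 7.90 and 7.995 in KO. Its groups did not overlap either, but the difference of -0.25 ± 0.087 did not pass (95% interval -0.45 to -0.045, adjusted p = 0.0761). It passed as lower with quantile normalization (-0.37, adjusted p = 0.0168) and with array weights (-0.27, adjusted p = 0.0395). Fech, which inserts the iron, stood at 11.04, 10.95 and 10.91 in WT and 10.56, 10.59 and 10.77 in KO. It fell by 0.33 ± 0.097 (1.26-fold, 95% interval -0.55 to -0.11, adjusted p = 0.0430, from 0.0187 to 0.172 over the alternatives), with KO liver 3 the closest to WT.

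The calls of Cpox and Fech were close to the threshold. That of Cpox was lost without any 1 of the 6 arrays (adjusted p from 0.0554 to 0.161), and its probe sets disagreed: a second bright one differed by -0.23 ± 0.11, and another, whose mean lay under background, by 0.64 ± 0.20. That of Fech was lost without WT liver 1 (adjusted p = 0.0945), WT liver 2 (0.0841), KO liver 1 (0.148) or KO liver 2 (0.142). All 4 Fech probe sets were lower on average in KO, by 0.14 to 0.41, and 1 of them passed in the fit over probe sets (adjusted p = 0.0278), where 19.9% of 34945 did. After control centring the differences turned to 0.19 for Cpox, 0.27 for Ppox and 0.18 for Fech, of which that of Ppox passed as higher (adjusted p = 0.0496).

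**Figure D3:**
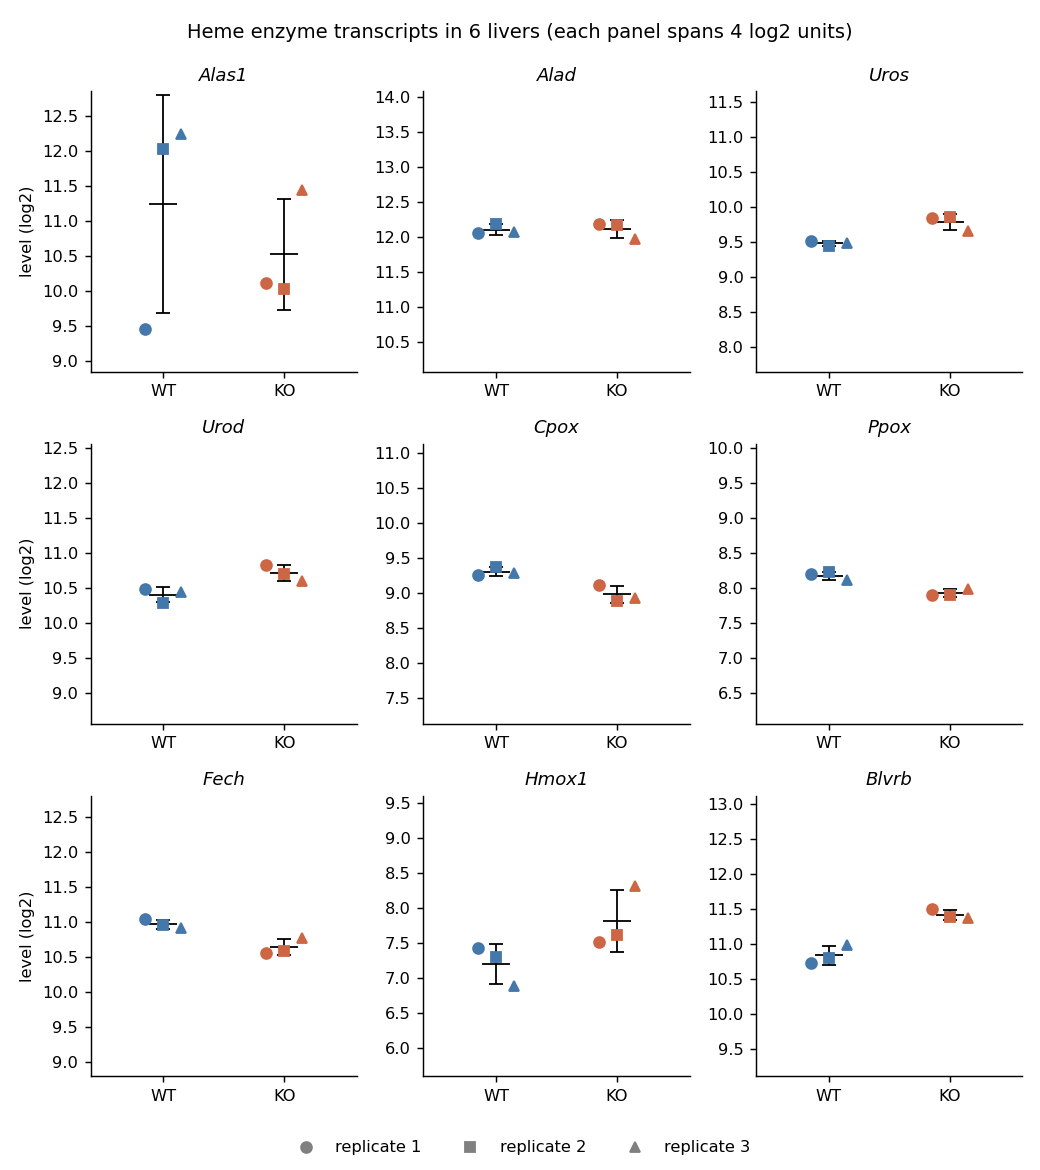
Level (log2) of each of the 9 enzymes in the 3 WT (blue) and 3 KO (orange) livers, with the mean and SD of each group; the symbols mark replicate numbers, and all panels have the same height in log2 units. The Alas1 groups overlap over a wide range, from 9.45 to 12.24 in WT, while the Blvrb groups stand apart, at most 10.98 in WT and at least 11.37 in KO.

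**Figure D4:**
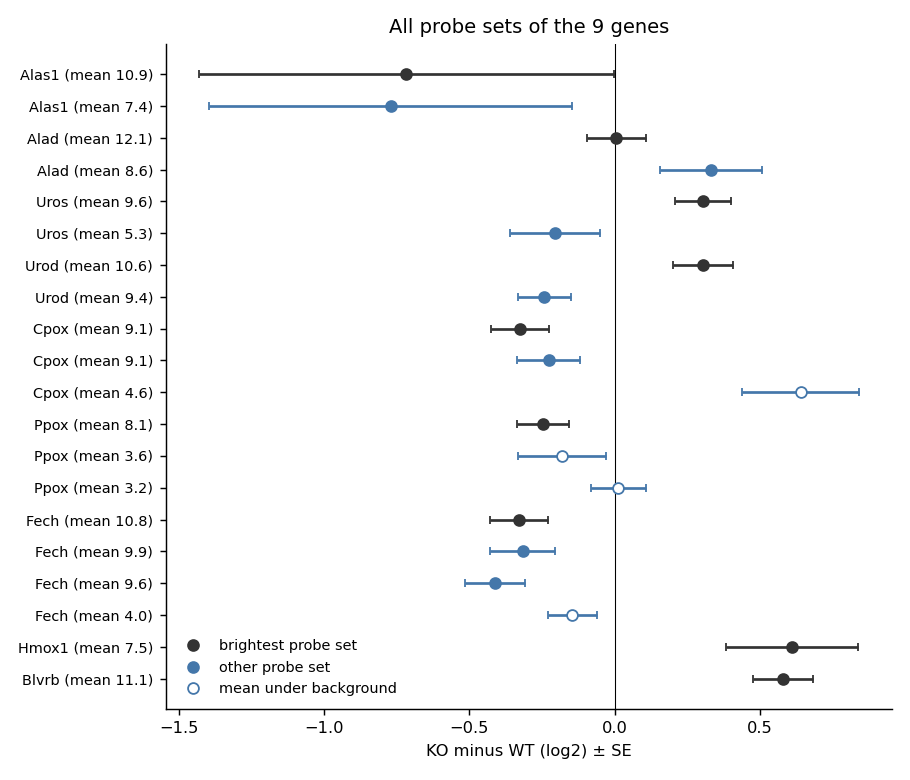
KO minus WT (log2) with its SE for every probe set of the 9 genes, brightest first within a gene; open symbols have a mean under background. The 4 Fech probe sets lie on the same side of 0, while those of Uros, Urod and Cpox lie on both sides.

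Both breakdown enzymes were higher on average in KO, and Blvrb passed the test. Blvrb, a flavin and biliverdin reductase, stood at 10.72, 10.79 and 10.98 in WT and 11.49, 11.37 and 11.37 in KO. The groups were separate and the gene rose by 0.58 ± 0.10 (1.50-fold, 95% interval 0.35 to 0.81, adjusted p = 0.00531). It was called higher under all 16 alternatives, by 0.53 to 1.09 (adjusted p from 9.15e-05 to 0.0299). Hmox1, the inducible oxygenase, stood at 7.42, 7.30 and 6.88 in WT and 7.51, 7.61 and 8.31 in KO. Each KO liver was above each WT liver, but the nearest were only 7.42 and 7.51, and the difference of 0.61 ± 0.23 did not pass (1.53-fold, 95% interval 0.084 to 1.14, adjusted p = 0.0887, from 0.00416 to 0.218 over the alternatives). WT liver 3 was the lowest and KO liver 3 the highest. Without KO liver 3 the difference was 0.36 (adjusted p = 0.196) and without WT liver 3 it was 0.45 (adjusted p = 0.218), while after control centring it was 1.12 and passed. Each of these genes had 1 probe set, so averaging the probe sets or taking the most variable one left its difference unchanged.

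Macrophages, which take up old red cells and are rich in heme oxygenase, were followed through 15 markers, each above background in its mean over the 6 arrays. The 1 that passed as higher was Gpnmb (2.17 ± 0.35, adjusted p = 0.00402). Its levels of 4.50, 4.56 and 5.31 in WT lay around the background of 4.90, so that the size of its difference is uncertain. So 1 of the 15 markers was higher, against 14.2% of all genes, and 0 were lower, against 9.75%. The median difference of the 15 markers was -0.12. Their summed level was lowest in WT liver 3, at 12.06, where Hmox1 was also lowest, against 13.21 and 13.06 in the other WT livers and 12.50 to 12.89 in KO. Of 12 measured erythroid markers, 5 were above background and 0 passed in either direction by limma, against 24.0% of all genes (at an unadjusted p under 0.05, 1 did, Epb42, lower). Their summed level was 9.25, 8.76 and 10.34 in WT and 8.45, 8.36 and 9.69 in KO, so it was highest in WT liver 3, where Hmox1 was lowest, and next in KO liver 3, where Hmox1 was highest. Alas2 was the brightest of the 5 in each liver, at 10.09 in WT liver 3, and weighs most in this sum. Hemgn and Hbb-b2, with the largest differences, were highest in KO liver 3, as were Slc4a1, Rhag, Klf1, Trim10, Ermap and Gata1. Of these only Hbb-b2, Klf1 and Gata1 lay above background in their mean. Alas2 and Sptb were highest in WT liver 3, Epb42 in WT liver 1 and Hba-a1 in KO liver 1. Hemgn was at 6.25 in KO liver 3 and at 2.79 to 3.23 in the other 5 livers. Hbb-b2 was at 7.47 in KO liver 3 and at its lowest, 4.15, in WT liver 3. Hba-a1 lay under background in all 6 livers. The part of these cells in the Hmox1 difference was not tested.

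The genes most like Hmox1 over the 6 arrays were Oxct1 (Pearson r = 0.988), the enzyme that activates ketone bodies, Dsc2 (0.987), a desmosomal cadherin, and Sh3bgrl3 (0.984), a small thioredoxin-like protein. In all 31 of 12041 genes had an r over 0.95. These correlations, too, are descriptions over 6 arrays that share their groups, and the number expected by chance was not estimated.

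Differences between enzymes within an array do not depend on how the arrays are centred, but they do depend on the probe sets. Only their change from WT to KO is read here, since levels of separate probe sets cannot be set against each other. Fech lost ground against both breakdown enzymes. Fech minus Blvrb was 0.32, 0.16 and -0.065 in WT and -0.93, -0.78 and -0.60 in KO, a change of -0.91 with separate groups. With all probe sets of a gene averaged, an alternative chosen after seeing the data, the change was -0.88 and the groups stayed separate. Fech minus Hmox1 changed by -0.94, and by -0.91 with averaged probe sets, again with separate groups. Cpox minus Hmox1 went from 2.11 ± 0.28 to 1.17 ± 0.50 (SD, n = 3), but with averaged probe sets it changed by -0.58 and the groups overlapped.

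Pairs within synthesis were less steady. Uros minus Fech was -1.53, -1.52 and -1.43 in WT and -0.72, -0.73 and -1.12 in KO, a change of 0.63 that was 0.35 with averaged probe sets, with separate groups both ways. Urod minus Cpox was 1.23, 0.91 and 1.15 in WT and 1.71, 1.82 and 1.67 in KO, also a change of 0.63, but of only 0.0024 and with overlapping groups once the probe sets were averaged. Uros minus Urod changed by 0.00021 and Hmox1 minus Blvrb by 0.030, with overlap. Alad separated from both other cytosolic enzymes, with changes of -0.30 for Alad minus Uros and for Alad minus Urod, which turned to 0.12 and 0.14 and overlapped with averaged probe sets. Of the 28 pairs without Alas1, 19 (67.9%) had groups that did not overlap, against 46.1% of all pairs of the 18193 genes, and 12 (42.9%) did with averaged probe sets. Among the 12 pairs of a synthesis with a breakdown enzyme, 9 separated, and 8 with averaged probe sets. Of the 8 pairs with Alas1, 0 did. The pairs share genes and were not tested.

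**Figure D5:**
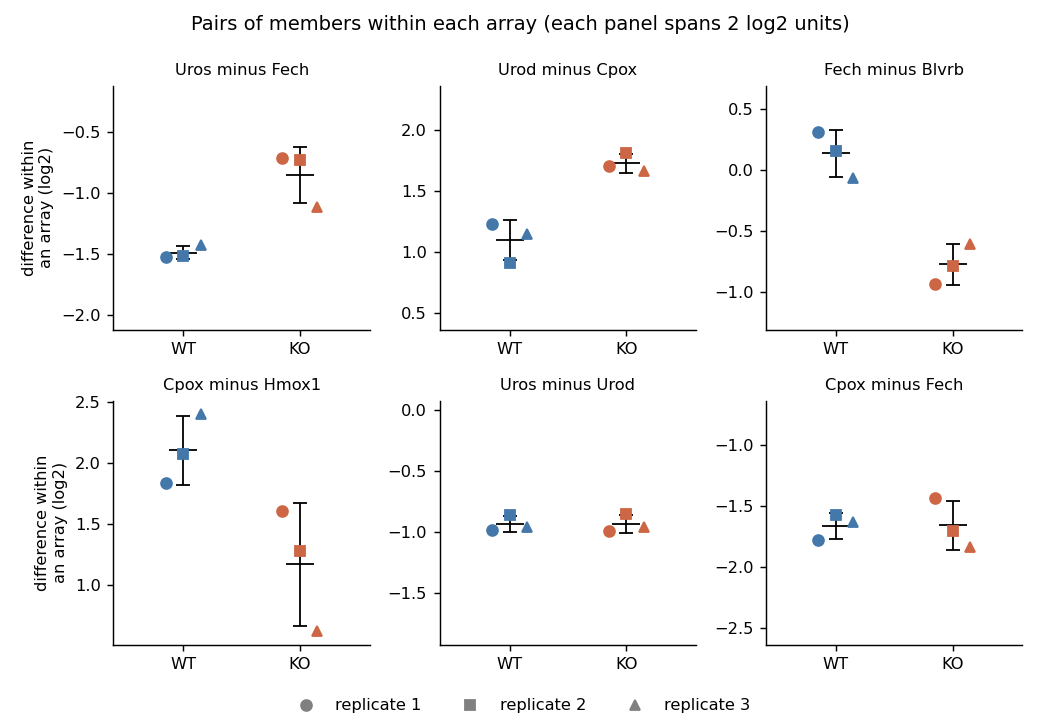
Differences between the levels of enzyme pairs within each array (log2) for 3 WT and 3 KO livers, with the mean and SD of each group. The levels are those of the brightest probe sets. Of the 6 pairs drawn, Uros minus Fech, Urod minus Cpox, Fech minus Blvrb and Cpox minus Hmox1 do not overlap between groups, and Uros minus Urod and Cpox minus Fech do.

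The remaining enzymes of the pathway were few. Hmox2, the constitutive oxygenase, stood at 9.81, 9.77 and 9.88 in WT and 10.29, 10.29 and 10.31 in KO. It rose by 0.48 ± 0.084 (1.39-fold, adjusted p = 0.00553). Blvra, the main biliverdin reductase of adult tissue, went the other way from Blvrb, at 8.15, 8.17 and 8.18 in WT and 7.80, 7.62 and 7.90 in KO. It fell by 0.39 ± 0.099 (adjusted p = 0.0242), a call lost without WT liver 2 (0.0592), KO liver 1 (0.0739) or KO liver 2 (0.0904), and its difference was 0.12 after control centring. Alas2, the erythroid form of the entry enzyme, overlapped between groups, at 8.64, 7.90 and 10.09 in WT and 7.34, 7.22 and 8.74 in KO (-1.11 ± 0.58, adjusted p = 0.196). It was lower by value in KO at each replicate number and passed with the number as a block (adjusted p = 0.00611), although the numbers were not shown to pair the livers. Ugt1a1 was not analysed here.

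Carriers and chaperones of heme, porphyrins and iron changed in both directions, with 6 of 22 higher, 6 lower and a median of -0.052 (14 higher and 1 lower after control centring). Of all genes 14.2% were higher and 9.75% lower, or 71.3% and 2.25% after control centring. These shares stand beside the lists that follow too. Flvcr2, a transporter of the plasma membrane, rose by 1.30 ± 0.18 (adjusted p = 0.00174), from 5.06 to 5.82 in WT to 6.72 to 6.73 in KO. Slc48a1, which carries heme out of lysosomes, rose by 0.90 ± 0.095 (adjusted p = 0.000557). Hebp1, a cytosolic heme-binding protein, fell by 1.19 ± 0.092 (adjusted p = 0.000112), from 11.45 to 11.60 in WT to 10.27 to 10.43 in KO. Fdx1, a mitochondrial ferredoxin, fell by 0.77 ± 0.097 (adjusted p = 0.00123), and by 0.26 without passing after control centring (adjusted p = 0.0690).

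Among 14 measured regulators of Alas1, 1 was higher and 3 were lower, with a median of -0.087 (5 higher and 2 lower after control centring). Ppargc1a, a coactivator that drives Alas1 in fasting, stood at 7.002, 7.30 and 7.36 in WT and 5.22, 5.76 and 5.52 in KO, and fell by 1.72 ± 0.16 (3.30-fold, adjusted p = 0.000274). Nr1i3, the xenobiotic receptor CAR, fell by 1.65 ± 0.15 (adjusted p = 0.000241), from 10.00 to 10.15 in WT to 8.16 to 8.73 in KO. Rxra, the partner of such receptors, fell by 0.43 ± 0.093 (adjusted p = 0.0141), a call lost without KO liver 1 (0.0577) or KO liver 2 (0.0628), and differed by 0.085 after control centring. Lonp1, a mitochondrial protease that degrades ALAS1 protein, rose by 1.77 ± 0.11 (3.41-fold, adjusted p = 3.45e-05), from 8.81 to 8.98 in WT to 10.50 to 10.76 in KO. The regulators named here are those that passed. The other 10 did not, and 7 of the 14 had groups that did not overlap, against 44.8% of all genes. Alas1 itself overlapped.

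Among 8 regulators of Hmox1, 3 were higher and 0 lower, with a median of 0.23 (7 higher after control centring). Atf4, of the stress response, rose by 0.79 ± 0.14 (adjusted p = 0.00533), from 10.22 to 10.68 in WT to 11.08 to 11.33 in KO. Nfe2l2, which encodes NRF2, the activator that binds antioxidant response elements, rose by 0.62 ± 0.11 (adjusted p = 0.00698), from 9.40 to 9.73 in WT to 10.10 to 10.30 in KO. Hif1a, of the hypoxia response, rose by 0.68 ± 0.11 (adjusted p = 0.00331), but by 0.23 without passing when its probe sets were averaged (adjusted p = 0.0804). Bach1, the heme-sensing repressor of Hmox1, overlapped between groups (0.20 ± 0.14, adjusted p = 0.318).

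Of 24 heme proteins of the liver, 2 were higher and 8 lower, with a median of -0.23 (13 higher and 5 lower after control centring). Cyp4a14, a fatty acid hydroxylase, rose by 7.44 ± 0.60 (adjusted p = 0.000138), from 5.01 to 7.62 in WT to 13.36 to 13.42 in KO. Cyp2b10, a drug-metabolising enzyme and a classical target of CAR, stood at 6.70, 5.43 and 7.04 in WT and 10.20, 10.33 and 10.72 in KO, a rise of 4.02 ± 0.37 (adjusted p = 0.000295) beside the fall of the CAR transcript. Cyp8b1, of bile acid synthesis, fell by 3.08 ± 0.17 (adjusted p = 2.88e-05), from 11.77 to 12.21 in WT to 8.74 to 9.28 in KO. Cyp7b1, of the alternative bile acid route, fell by 2.71 ± 0.29 (adjusted p = 0.000555).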

How the data were processed

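The deposited table holds log2 expression values of 45101 probe sets, made by the authors with RMA, per the submitters' processing notes, with its version not given in the sources used here. RMA corrects background, quantile-normalizes the probes and summarises them, so shifts shared by most transcripts are removed. Genes were named from the platform annotation: 34945 probe sets had 1 symbol, 932 had several and were left out, 9160 were not listed, and the brightest probe set stood for each gene. Moderated linear models (limma 3.58.1, R 4.3.3) compared 3 KO with 3 WT arrays over 18193 genes, with Benjamini-Hochberg adjustment and a threshold of 0.05. Background was 4.90, the 95th percentile of the means of 39 olfactory receptor genes, and 12042 genes lay above it. The fit was tested on simulated data, and precision is limited by the small number of arrays. The labels do not say more of how the samples of a group relate than that they are separate livers, and name no batch, so p-values measure the spread between these samples. The enzymes and lists were chosen with earlier results of these data known. Named from each other list were at most 4 genes past the threshold with the largest differences, or 2 where none passed. Ppargc1a and Pex5 were always named, as were the 3 genes most correlated with Alas1 and with Hmox1. Outside this rule, Nr1d1, Clpx, Alas2, Bach1 and the erythroid markers other than Hemgn and Hbb-b2 were named too. A summed level is the log2 of the summed linear values of the markers above background. The 16 alternatives were the replicate block, a background filter, quantile normalization, centring on the array median or on bacterial controls, averaged or most variable probe sets, trend and robust eBayes, array weights, a threshold of 0.01 and leaving out each array. Promoter motifs were matched by letters in RefSeq windows.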

Additional observations from a re-analysis of the deposited data

How the results depend on the processing

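Under all 16 alternatives Blvrb was called higher, though with 1 probe set the choice of probe sets could not move its difference. The number of enzymes called higher, 1 as reported, was 3 with the background filter, with arrays centred on the median, with trend and robust eBayes and with array weights (Uros and Urod joining Blvrb), and 6 with control centring. The number called lower, 2 as reported, was 1 with averaged probe sets and 1 with the most variable probe set (Fech in both), 3 with quantile normalization (Cpox, Ppox and Fech), 2 with array weights, where Ppox replaced Cpox (adjusted p = 0.0509), and 0 with the replicate block, with median centring, with control centring and at a threshold of 0.01. Leaving out each array in turn gave 1 to 2 higher and 0 to 1 lower. Same-numbered WT and KO arrays deviated together with correlations of 0.105, -0.018 and 0.105, so the numbers were not taken to pair the livers. With the replicate block 1 enzyme was higher and 0 were lower, and the adjusted p was 0.0809 for Cpox and 0.0772 for Fech, while Alas2 passed as lower (adjusted p = 0.00611). Directions turned with control centring for Cpox (0.19), Ppox (0.27), Fech (0.18), Blvra (0.12), Rxra (0.085), Ppp1r12b (0.43), Tef (0.065), Nr1d1 (0.26), Fgb (0.022), Krt19 (0.0024), Reln (0.016) and Clec4g (0.093). That of Cpox also turned with averaged probe sets (0.029) and with the most variable one (0.64), a probe set with a mean under background. That of Uros turned with the most variable one (-0.20), and the changes of Alad minus Uros (0.12) and Alad minus Urod (0.14) turned with averaged probe sets. For control centring the shift of 0.51 accounts for the turn by construction. The cause of the other changes was not tested.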

Other observations

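Among the 13 endothelial, stellate and biliary markers, those past the threshold with the largest differences were Lyve1, of sinusoidal and lymphatic endothelium, which was higher by 2.06 ± 0.31 (adjusted p = 0.00287, WT under background in each liver), and Krt19, of bile ducts, Reln, of stellate cells, and Clec4g, of sinusoids, which were lower by value (-0.51, -0.50 and -0.42; adjusted p = 0.0384, 0.00755 and 0.0403). Krt19 stood at 5.12, 4.85 and 5.28 in WT and 4.53, 4.79 and 4.39 in KO, around the background of 4.90. Single left-out arrays ended the calls of Krt19 (WT 1, WT 3, KO 1 or KO 3) and of Clec4g (any array but WT 2). Among hepatocyte markers Asgr1 (-0.58, adjusted p = 0.00333) and Fgb (-0.49, adjusted p = 0.00533) were lower, at -0.070 and 0.022 after control centring with both calls lost. Ahsg was higher by 0.28 (adjusted p = 0.0403), a call lost without any 1 of the arrays.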
